A study of Mus musculus with 36 samples.

Results

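The regions described here were called middle in replication timing in both B cell maps of the study and late in its fibroblast map. They were chosen from the deposited replication timing (RT) states alone. A member was a 20 kb bin of an autosome, with at least 1 known base, that was middle (M) in shLacZ CH12 cells, M in WT primary B cells and late (L) in mouse embryonic fibroblasts (MEFs). There were 1359 such bins, or 27.18 Mb, among 119839 autosomal bins with a known base and a state in all 3 maps (1.13%). Adjacent bins were merged into 153 runs on 18 of 19 autosomes.

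The maps rest on Repli-seq: BrdU marks newly made DNA, whose reads are compared between cells sorted from early and late S phase. Of 36 libraries in 7 groups, 8 lie behind the B cell maps, 4 from each of 2 groups. CH12 is a mouse B cell lymphoma line, for which the methods name a single clone. The CH12 group used here carried a lentiviral shRNA against LacZ as infection control, had normal Rif1, and was stimulated through IL4, CD40 and TGF beta. The other group was primary activated splenic B cells of WT genotype, whose mouse age is not given in the sources used here and whose label repeats the culture text of CH12 cells. The MEF map is named WT, is tied to no sample of the series, and belongs to Repli-seq that the study lists as public. The remaining 5 groups were depleted of Mcm6, lacked 1 or both copies of Rif1, or both, and were not analysed here. The maps hold no expression values, so no cell type could be checked against its markers. Replicates were merged before states were called, giving 1 map per condition. No replicate error and no test between conditions can therefore be given, and the values below are descriptions. The maps do not give the read depth. Intervals are Wilson 95% intervals for counts of bins, which take neighbouring bins as independent although they are not.

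Mammalian genomes replicate in domains that span many genes. Gene-rich, GC-rich and transcribed domains generally replicate early, and gene-poor domains at the nuclear periphery generally replicate late. Part of this order differs between cell types, and many domains shift timing during development along with changes in gene expression. Middle states include the slopes between early (E) and late domains as well as separate stretches of intermediate timing.

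A block of 76 of the 1359 member bins lay in the immunoglobulin kappa light chain locus (Igk) on chromosome 6. Developing B cells join 1 of its V segments to a J segment by recombination. The cut is made at a signal that follows each V segment, a heptamer and a nonamer separated in Igk by 12 bases. The 5 signals below are shown because they carry the exact heptamer CACAGTG and the exact nonamer ACAAAAACC, in capitals, after V segments that start in member bins. They are in 4 of the 5 runs of the locus and are written 5′ to 3′ on the strand of the segment, from NCBIM37 (mm9).
Igkv2-112, chr6:68170701-68170728, plus strand: CACAGTGatagagccctgaACAAAAACC
Igkv4-61, chr6:69366859-69366886, minus strand: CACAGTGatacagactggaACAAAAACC
Igkv4-59, chr6:69388184-69388211, minus strand: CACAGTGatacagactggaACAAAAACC
Igkv18-36, chr6:69942431-69942458, minus strand: CACAGTGattcaacatgtcACAAAAACC
Igkv3-12, chr6:70468844-70468871, plus strand: CACAGTGctccagggctgaACAAAAACC

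The exact heptamer was found within 60 bases after 39 of the 48 Igk V segments in members (81.2%) and after 83 of all 99 in the locus (83.8%). The exact nonamer 12 bases beyond it followed 5 of the 48 and 31 of all 99. Both were searched on the strand of the segment only.

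The annotated Igk segments span chr6:67505630-70676751, or 159 bins. The MEF map was L in 148 of these bins and M in 11. The primary B map was M in 150 and E in 9. The CH12 map was E in 64, M in 93 and L in 2, so within the locus most edges between member and other bins lay where the CH12 state changed. Member bins numbered 76 (47.8%), in 5 runs. Of 99 V segments, 48 started in member bins (48.5%). Among all 355 annotated V segments on autosomes, those of Igk included, 67 did (18.9%). Of the Igk V segments, 36 started in bins that were E in CH12, M in primary B cells and L in MEFs. A further 8 lay in bins M in all 3 maps, and 6 in bins that were M in CH12, E in primary B cells and L in MEFs.

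The longest Igk run, chr6:67540001-68240000, was 700 kb long and filled a whole CH12 M domain. It held 20 annotated V segments, from Igkv1-135 to Igkv1-110, and the protein-coding entry Igkv1-115. To its left CH12 turned L and MEFs turned M, and to its right CH12 turned E. The next runs were 200 kb (chr6:68420001-68620000), 160 kb (chr6:69300001-69460000) and 80 kb (chr6:69880001-69960000). They held 5, 5 and 3 V segments, and the CH12 M domains around them had E on both sides. The last run, chr6:70120001-70500000, was 380 kb long, held 15 V segments from Igkv8-27 to Igkv3-12, and ended where MEFs turned M. Within these 5 runs, 57.9 to 83.9% of 50-base words (50-mers) occurred once in the genome. The authors kept unique alignments only, which leaves out reads that align equally well to several places. The part of this in the states was not tested.

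Other antigen receptor loci were looked at after their values had been seen. In the immunoglobulin heavy chain locus (Igh) on chromosome 12, 102 of 112 V segments were L in MEFs, but 81 of these were also L in CH12 and M in primary B cells. One 340 kb run, chr12:116380001-116720000, held 14 of the 112 (12.5%). On both sides of it CH12 turned L. In the T cell receptor gamma locus (Tcrg) on chromosome 13, a 160 kb run at chr13:19260001-19420000 held 5 of 7 V segments, Tcrg-V7, Tcrg-V4, Tcrg-V6, Tcrg-V5 and Tcrg-V3. The other 2 were M in all 3 maps. None of 108 V segments of the alpha and delta locus and none of 23 of the beta locus started in a member bin. Nor did any of the 3 annotated V segments of the immunoglobulin lambda light chain locus. In the beta locus, 18 were L in CH12 and MEFs and M in primary B cells, and 5 were L in all 3. The 3 loci with members thus differed in the share of V segments that met the rule, from 12.5% in Igh through 48.5% in Igk to 71.4% in Tcrg. The shares of their bins were 12.4%, 47.8% and 80.0% in the same order. V segments of a run share its states and are not separate units, and the Igh and Tcrg shares each rest on 1 run.

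**Figure D1:**
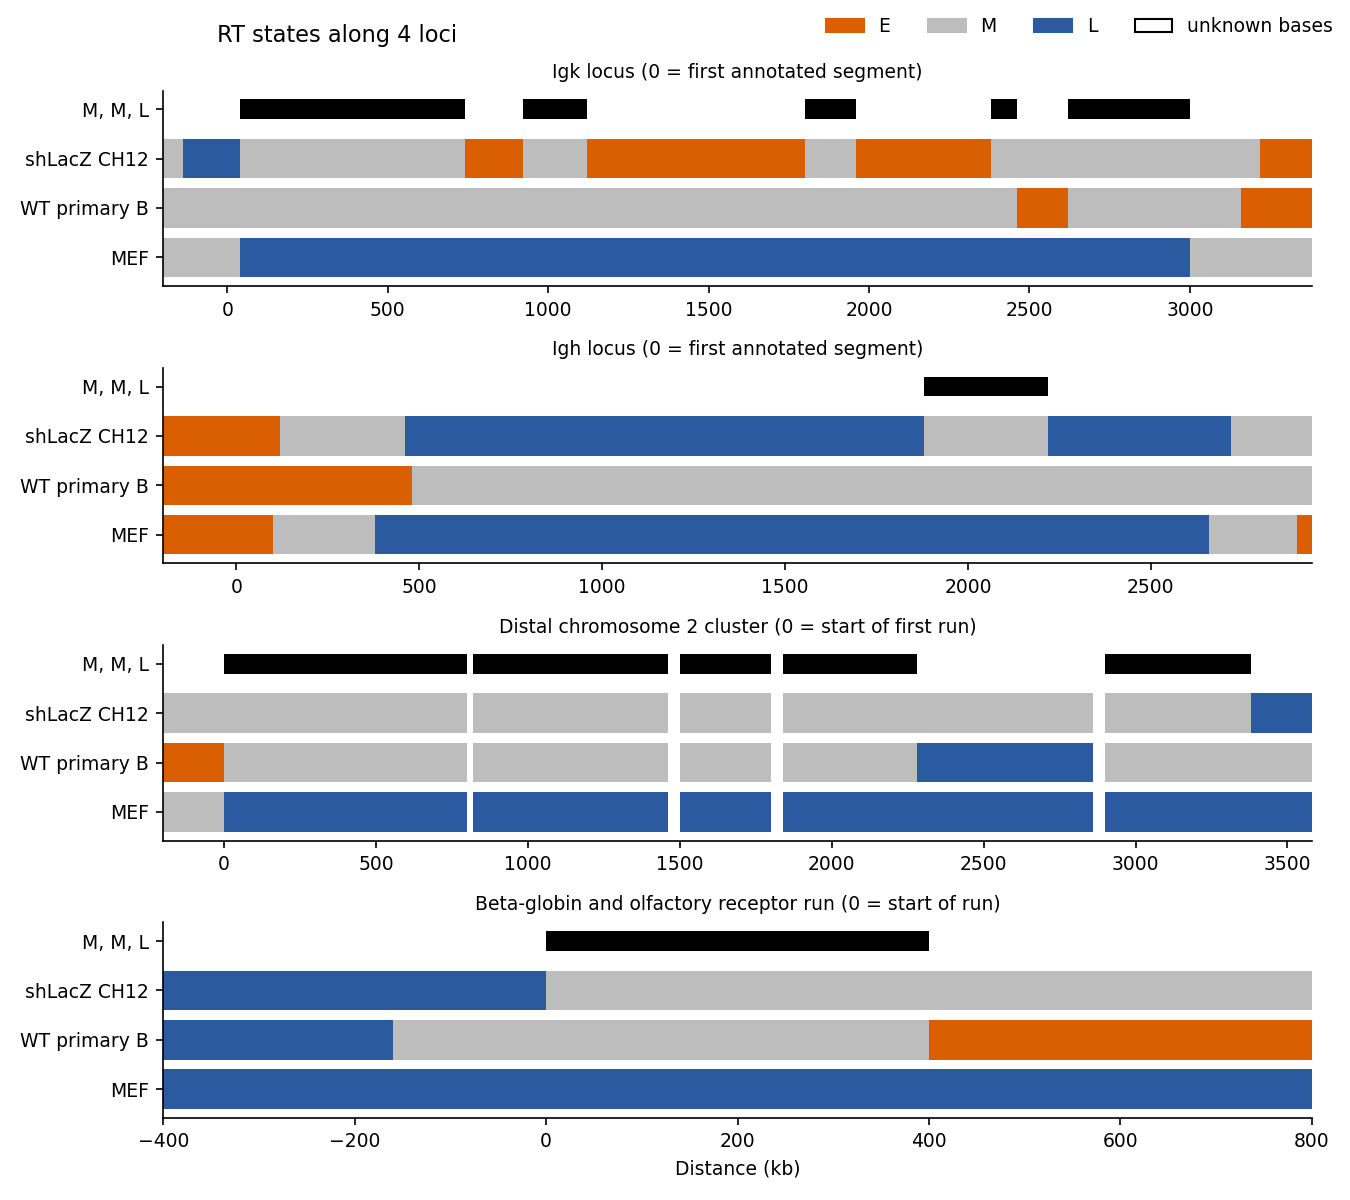
RT states of shLacZ CH12, WT primary B and MEF maps along 4 loci, in 20 kb bins against distance in kb, with member bins as black bars above. In Igk the 5 member runs sit where the CH12 track is M. In the distal chromosome 2 cluster the MEF track is L wherever bases are known.

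The share of B cell M bins that was L in MEFs came next. Of 119839 bins, 17.1% were M in both B cell maps and 29.1% were L in MEFs. Among the 20507 bins M in both B cell maps, 12499 (60.9%) were also M in MEFs, 6649 (32.4%) were E, and 1359 (6.63%, Wilson 95% interval 6.29 to 6.98%) were L. The share L in MEFs was thus below that of all bins, and the share E in MEFs was close to the 33.8% of all bins. Seen from the fibroblast side, 34853 bins were L in MEFs. Of these 29652 (85.1%) were L in both B cell maps, 2782 (7.98%) were L in CH12 and M in primary B cells, and 1359 (3.90%) were members. Bins M in CH12 but L in the primary B map made up 598 (1.72%).

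The share varied between chromosomes. It was 15.1% on chromosome 2 (212 bins in 14 runs), 13.8% on chromosome 6 (187 bins in 19 runs) and 9.83% on chromosome 12 (119 bins in 15 runs). Among chromosomes with members it was lowest on chromosome 15, at 1.42% (11 bins in 1 run), and on chromosome 18, at 1.60%. Chromosome 8 had 0 members among 1052 bins M in both B cell maps, which allows a share of up to 0.285% at the 3 counts that a count of 0 allows, or 0.364% as the upper end of the Wilson interval drawn in the plot by autosome. Both take neighbouring bins as independent. On this chromosome 30.5% of bins were L in MEFs. Without chromosomes 2 and 6 the share over the other autosomes was 5.41%.

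**Figure D2:**
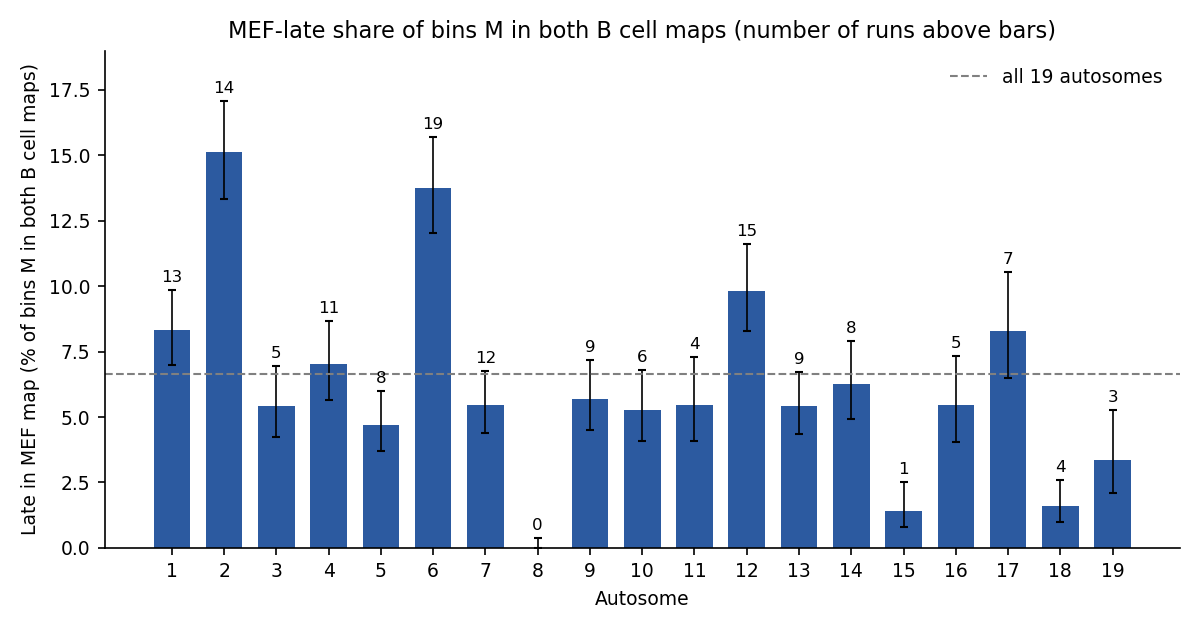
Percentage of bins M in both B cell maps that were L in the MEF map, for each of 19 autosomes, with Wilson 95% intervals over bins as error bars, the number of runs above each bar and the share over all autosomes as a dashed line. Chromosomes 2, 6 and 12 stand highest, and chromosome 8 has 0.

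Runs were mostly short. The median was 140 kb and the range 20 to 800 kb, with 14 runs of a single bin. The RT values behind the states were smoothed over 300 kb, and 125 runs were shorter than that span. The 28 runs of at least 300 kb held 584 of the 1359 bins (43.0%), and the 10 longest held 273 (20.1%).

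**Figure D3:**
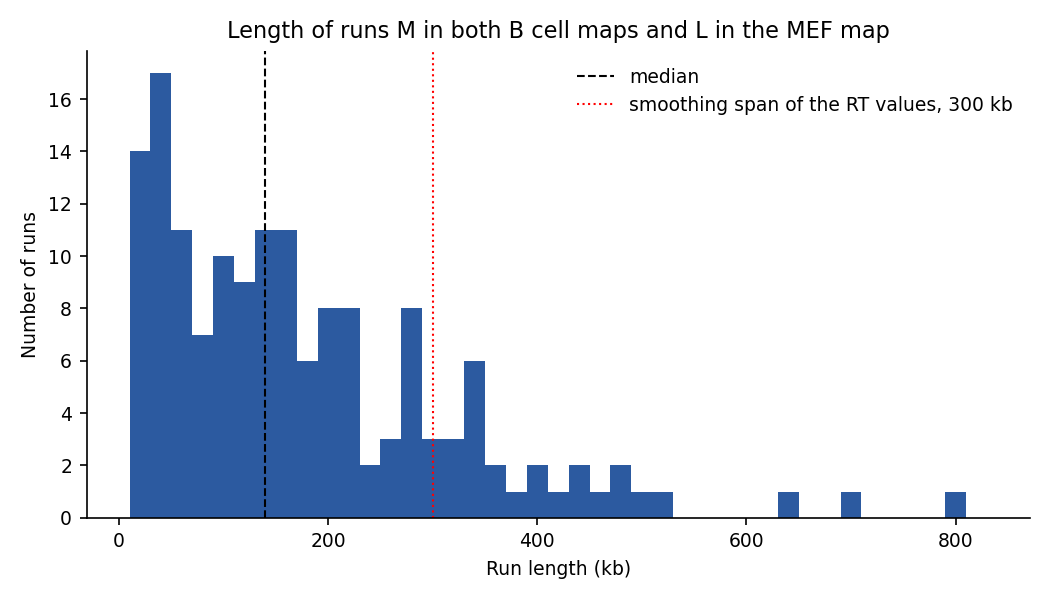
Histogram of the length of the 153 runs in kb, in steps of 1 bin, with the median of 140 kb and the 300 kb smoothing span marked. Most runs lie left of the smoothing span and the longest stands alone at 800 kb.

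Where a run ended was decided most often by the CH12 map. Of 306 run ends, 131 (42.8%) were places where only CH12 changed, to L. At 90 ends (29.4%) only MEFs changed, to M. Primary B cells alone turned E at 25 ends and L at 22, CH12 alone turned E at 13, and 12 ends met unknown bases. The bins just outside the rule were therefore mainly bins L in CH12, M in primary B cells and L in MEFs, or bins M in all 3 maps. At 20 kb from the run ends, 80.3% of bins were still M in primary B cells, against 48.0% in CH12. At 300 kb these shares were 41.6% and 32.9%.

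The M domains around the runs had different neighbours in the B cell maps. In CH12, 70 runs with 658 bins (48.4%) lay in M domains that had L on both sides, and 70 runs with 606 bins (44.6%) lay between E and L. In primary B cells, 88 runs with 714 bins (52.5%) lay between E and L, and 44 runs with 440 bins (32.4%) had L on both sides. The M domain had E on both sides for 7 runs in CH12 and 14 in primary B cells. In 36 runs with 372 bins, L lay on both sides in both B cell maps. The run filled the whole M domain in 25 cases in CH12 and in 4 in primary B cells, where the median M domain around a run was 660 kb against 440 kb in CH12.

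In MEFs, the runs fell in 123 of 461 late domains on autosomes. The median length of these domains was 1200 kb, beside 960 kb for all late domains. Of the 153 runs, 96 touched the edge of their late domain, and 32 lay at least 300 kb inside it. The nearest E bin was a median of 520 kb from the run in primary B cells, 760 kb in CH12 and 1560 kb in MEFs. It was nearer in primary B cells than in MEFs for 116 of 153 runs, and nearer in CH12 than in MEFs for 99. Since a member is never beside an E bin in MEFs by the rule and the order of states, part of this distance follows from the choice of members.

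**Figure D4:**
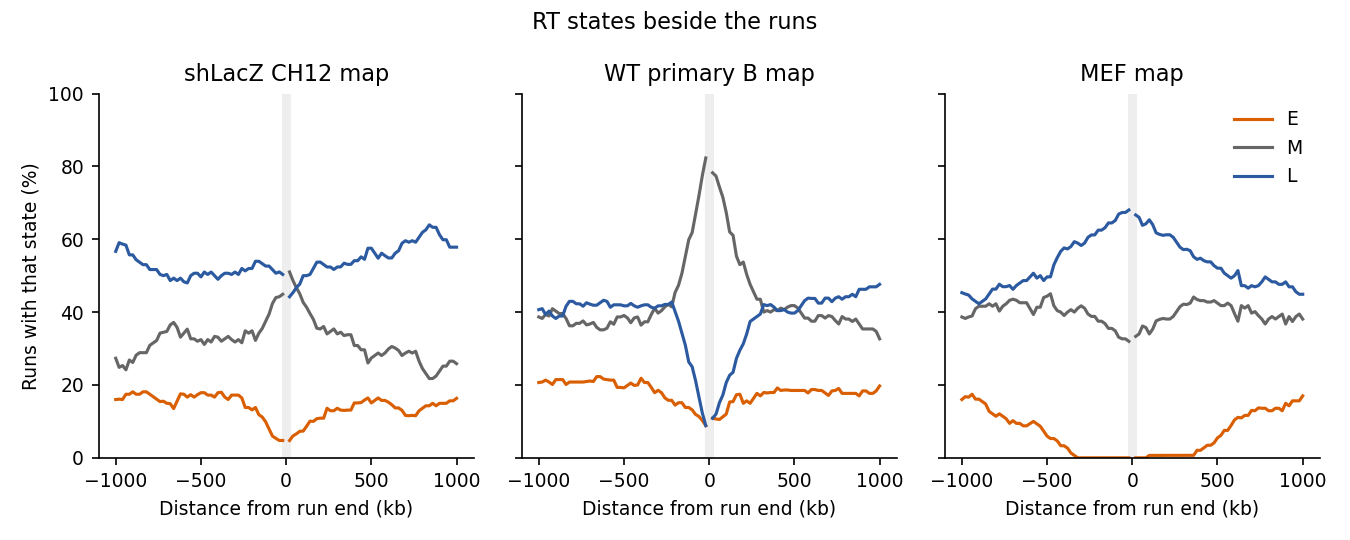
Percentage of runs with state E, M or L in each of the 3 maps, against distance in kb from the run's left end (negative) and right end (positive). In primary B cells M falls from 80.3% at 20 kb to 41.6% at 300 kb, and in MEFs the share of E at 300 kb is 0.336%.

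The longest run, of 800 kb, and 4 others lay in a cluster of related genes on distal chromosome 2, chr2:174540001-177920000. These 5 runs were 800, 640, 300, 440 and 480 kb long in chromosome order and held 133 of the 1359 member bins (9.79%). The span had 7 bins of unknown bases, and its remaining 29 bins were M in CH12 but L in the primary B and MEF maps. The maps gave M in CH12 and L in MEFs over the whole span, including the 7 bins of unknown bases. No read can align to those 7 bins. The 29 bins L in primary B cells lay between the fourth run and the last. Of 43 protein-coding genes that started in the 5 runs, 39 carried predicted or RIKEN symbols such as Gm14444, Gm4631 and 2210418O10Rik. The other 4 were Edn3, which encodes the peptide endothelin 3, Phactr3, a regulator of protein phosphatase 1 and actin, Etohi1 and the zinc finger gene Zfp931.

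In the same span the share of unique 50-mers was low. It was 38.1% in the first run, 0 in the next 2, 2.11% in the fourth and 40.96% in the fifth, beside 89.4% over all bins. In 114 of the 133 bins under 50% of 50-mers were unique, and the part of this in the states was not tested. Copies of a gene here share sequence up to their starts. The 250 bases before the start of Gm11007 are shown because the same letters precede Gm2007 and Gm14432 in 2 different runs, with CpG dinucleotides in capitals.
Gm11007, chr2:175642860-175643109, plus strand: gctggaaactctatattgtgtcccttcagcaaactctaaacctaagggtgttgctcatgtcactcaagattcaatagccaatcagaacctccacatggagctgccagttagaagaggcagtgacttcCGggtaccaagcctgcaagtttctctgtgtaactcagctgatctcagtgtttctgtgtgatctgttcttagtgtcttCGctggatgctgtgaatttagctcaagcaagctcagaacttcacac

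Over all members, 14 of 221 such upstream windows (6.33%) were found word for word at a protein-coding start in another place, and 11 of the 14 lay in this cluster. The share was 4.14% for bins M in all 3 maps, 0.706% for bins M in both B cell maps and E in MEFs, 2.78% for bins L in all 3, and 1.37% for all 21413 windows.

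Among the 10 longest runs were also several with high uniqueness. The run chr1:177360001-177880000 was 520 kb long, filled a whole CH12 M domain with L on both sides in both B cell maps, and had 94.4% unique 50-mers. It contained the starts of 7 genes. These were Exo1, an exonuclease of DNA mismatch repair, Fh1, the fumarate hydratase of the citric acid cycle, Kmo, which hydroxylates kynurenine in tryptophan breakdown, Opn3, an opsin, Chml, a Rab escort protein, Rgs7, a regulator of G protein signalling in neurons, and Wdr64. The nearest E bin was 2260 kb away in CH12, 1000 kb in primary B cells and 2280 kb in MEFs, so this was an island of M inside late surroundings in B cells.

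The run chr6:106360001-106820000 was 460 kb long and had 95.6% unique 50-mers. It held the starts of Crbn, which encodes cereblon, the substrate receptor of a ubiquitin ligase, Trnt1, which adds the CCA end to tRNAs, and Il5ra, the alpha chain of the receptor for interleukin 5, a cytokine of eosinophils and B cells. It also covered 289304 bases of Cntn4, a neuronal adhesion gene whose own start was L in all 3 maps. L lay on both sides of the surrounding M domain in both B cell maps. The 250 bases before 2 starts from these chromosome 1 and 6 runs are shown as examples of CpG-rich member starts. CpG dinucleotides are in capitals, and each window ends at the base before the annotated start.
Exo1, chr1:177810659-177810908, plus strand: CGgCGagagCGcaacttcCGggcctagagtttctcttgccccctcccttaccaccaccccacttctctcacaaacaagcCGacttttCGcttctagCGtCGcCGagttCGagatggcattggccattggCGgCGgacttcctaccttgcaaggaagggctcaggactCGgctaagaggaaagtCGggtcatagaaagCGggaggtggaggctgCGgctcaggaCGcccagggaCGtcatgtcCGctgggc
Crbn, chr6:106750069-106750318, minus strand: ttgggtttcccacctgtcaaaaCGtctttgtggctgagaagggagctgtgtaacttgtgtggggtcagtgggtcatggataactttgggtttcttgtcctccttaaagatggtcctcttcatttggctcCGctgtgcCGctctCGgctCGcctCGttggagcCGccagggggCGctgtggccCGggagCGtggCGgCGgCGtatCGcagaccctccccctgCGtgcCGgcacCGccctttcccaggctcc

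The Exo1 window had 19 CpGs and 60.8% GC, and the Crbn window 17 CpGs and 62.0% GC. A window was called CpG-rich at 50% GC or more and an observed over expected CpG ratio of at least 0.6. By that rule 32 of 221 members were CpG-rich (14.5%, Wilson 95% interval 10.4 to 19.7%), against 38.8% of all windows. The share was 31.7% where all 3 maps were M and 8.58% where all 3 were L. It was 44.5% where both B cell maps were M and MEFs E. The interval of the members thus lay below the shares of the other classes M in both B cell maps. It takes the 221 starts as independent although they are not. Of these, 43 lay in the chromosome 2 cluster, where 11 windows were found word for word at another start. Besides Exo1 and Crbn, CpG-rich members of the longest runs were Pcmtd1, Opn3 and Phf14.

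The remaining runs of the 10 longest held few genes. The 480 kb run chr1:6840001-7320000 held the start of Pcmtd1, a methyltransferase-domain gene, and 11021 bases of St18, a zinc finger transcription factor gene that started in a bin M in CH12, L in the primary B map and M in MEFs. The 440 kb run chr6:11760001-12200000 held Ndufa4, of the mitochondrial respiratory chain, Phf14, a PHD finger gene, and Gm6578. The 500 kb run chr12:93880001-94380000 overlapped 0 protein-coding genes. Its nearest E bin was 780 kb away in CH12, 5060 kb in primary B cells and 5100 kb in MEFs.

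One run outside the 10 longest was picked after its genes had been seen, chr7:110840001-111240000 of 400 kb. It held the beta-globin genes among olfactory receptor genes, 5 and 22 of its 27 protein-coding starts. Hbb-b1 and Hbb-b2 are expressed in adult and Hbb-bh1 and Hbb-y in embryonic red cells, and Hbb-bh2 is a further member of the cluster. CH12 turned L to the left of the run and primary B cells turned E to the right of it. In MEFs the run lay 800 kb inside its late domain. Unique 50-mers made up 86.0%. The window before Hbb-bh1 is shown as an example of a CpG-poor member start, with 2 CpGs in capitals.
Hbb-bh1, chr7:110991679-110991928, minus strand: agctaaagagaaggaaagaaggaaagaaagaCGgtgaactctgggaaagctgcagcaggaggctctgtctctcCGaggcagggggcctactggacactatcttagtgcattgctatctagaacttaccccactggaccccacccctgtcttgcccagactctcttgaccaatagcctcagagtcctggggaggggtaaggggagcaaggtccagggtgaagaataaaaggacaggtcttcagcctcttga

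Single genes of other runs are named as examples, picked by hand from the 221 member starts after these had been seen. They are no measure of a kind of gene, for which the gene lists below gave no result. Tox, an HMG-box factor needed for T cell development, started in a 320 kb run at chr4:6660001-6980000, to the right of which CH12 turned E. Nkx2-1, a transcription factor of lung, thyroid and forebrain, started in a 200 kb run at chr12:57480001-57680000. Both runs were highly unique, at 96.9% and 96.1%. The leukocyte immunoglobulin-like receptor genes Gp49a and Lilrb4 shared a 340 kb run at chr10:51020001-51360000, beside which CH12 turned E. Clec5a, a C-type lectin of myeloid cells, Crlf2, a chain of the receptor for thymic stromal lymphopoietin, and Bcl2a1b, a BCL2 family survival gene, started in runs of 180, 180 and 260 kb.

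In all, 221 of 21418 protein-coding genes on the bins compared started in members (1.03%), close to the members' 1.13% of bins. At least 1 start was found in 188 of the 1359 bins (13.8%), beside 14.8% of all bins. A protein-coding start was present in 79 of 153 runs, and 53 runs overlapped 0 protein-coding genes. Gene bodies brought in 36 further genes that started elsewhere. Their median length was 263 kb, against 11.8 kb for genes that started in members. Genes over 500 kb that overlapped a member numbered 11, including Fhit (1612 kb), Gpc5 (1432 kb), Immp2l (1306 kb), Agbl4 (1267 kb) and Cntn4 (1022 kb). Of these 5, Gpc5 alone started in a member bin.

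Gene families differed in how many members they had. Olfactory receptor genes had 36 of 1106 starts in members (3.25%), vomeronasal receptor genes 10 of 327 (3.06%), and genes with Zfp symbols 10 of 362 (2.76%), each beside 1.03% of all protein-coding starts. The 36 olfactory receptor genes lay in 28 bins, and 22 of them in the beta-globin run, so they are not independent of each other. Predicted and RIKEN genes had 66 of 3232 (2.04%), of which 39 were in the chromosome 2 cluster. Of 30 families looked at, 21 had 0 starts in members, keratin, serpin, histone and chemokine genes among them. The largest of the 21, keratin, had 97 genes. At the 1.03% of all protein-coding starts, a count of 0 in families of this size is near that share and is no result about them.

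Gene lists for 4 kinds of cell and for DNA replication gave no result about the members. Of 59 B cell genes, 78 genes of other blood cells, 70 fibroblast and matrix genes, 88 neuron and synapse genes and 37 genes of replication licensing and firing, 0 started in members. At the 1.03% of all protein-coding starts, each list would hold 0.382 to 0.908 such genes, so a count of 0 is near that share. Over all 332 genes the upper end of the Wilson interval was 1.14%. Bodies of 3 neuron and synapse genes overlapped members, Cntn4, Gabrb1 and Grm5.

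The DNA of the members was set beside 3 other classes of bins. The choice of bins used states alone, but in each map M was the state that touched both others, and E was told from L by its gene starts and GC content. That E exceeds L in both measures therefore follows from the naming, and the order of classes that differ in E and L is not independent of it. GC content was 39.8% in members, 42.5% where all 3 maps were M, 44.2% where both B cell maps were M and MEFs E, and 38.2% where all 3 maps were L. As a mean over the 18 autosomes with members it was 39.6% ± 0.697 (SD), 42.5% ± 0.654, 44.1% ± 0.796 and 38.3% ± 0.526 in the same order. On each of the 18 autosomes members had lower GC than the 2 other B cell M classes and higher GC than bins L in all 3. The ratio of observed to expected CpG followed this order, at 0.165, 0.195, 0.215 and 0.149.

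Gene starts were close in number across the 3 M classes. Protein-coding starts per Mb numbered 8.13 in members and 8.89 where all 3 maps were M. They numbered 9.60 where both B cell maps were M and MEFs E, and 2.79 where all 3 maps were L. Members had more starts per Mb than bins L in all 3 on 17 of 18 autosomes, and fewer than bins M in all 3 on 11. With bins within 100 kb of a domain edge left out, the values became 10.1, 9.94, 9.78 and 2.55, so the order among the M classes turned, on 387 members. Without the distal chromosome 2 cluster members had 7.26. Protein-coding genes covered 31.8% of member bases, between the 42.5% of bins M in all 3 maps and the 20.2% of bins L in all 3. The median length of genes that started in members was 11.8 kb, against 15.6, 25.2 and 2.66 kb in the other classes.

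Members had a lower share of unique 50-mers than the 3 other classes. Unique 50-mers made up 73.3% of those sampled, against 87.1% where all 3 maps were M and 86.3% where all 3 were L. Where both B cell maps were M and MEFs E, they made up 93.3%. In 254 of the 1359 bins (18.7%) under 50% were unique, beside 3.32% of all bins. The share was lower than in bins M in all 3 maps on 14 of 18 autosomes and lower than in bins L in all 3 on 12. The low values were concentrated on a few chromosomes, with 130 of these 254 bins on chromosome 2. Without chromosome 2 the members' share rose to 79.7%, and over runs it ranged from 0 in 5 runs to at least 90% in 47. With the 1105 members of at least 50% unique 50-mers, GC stayed at 39.8% and the density of protein-coding starts was 7.29 per Mb, beside 8.58, 9.50 and 2.56 per Mb in the other classes treated alike. For the study's own Repli-seq the methods give single-end reads of 50 bases. The maps also gave states to bins of unknown bases only, to which no read can align. On autosomes 106 such bins had the members' states and were dropped. Whether the low uniqueness bears on the states was not tested. Pseudogene starts were 2.87 per Mb in members and 1.45 per Mb in the 1105, beside 1.70 over all bins.

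**Figure D5:**
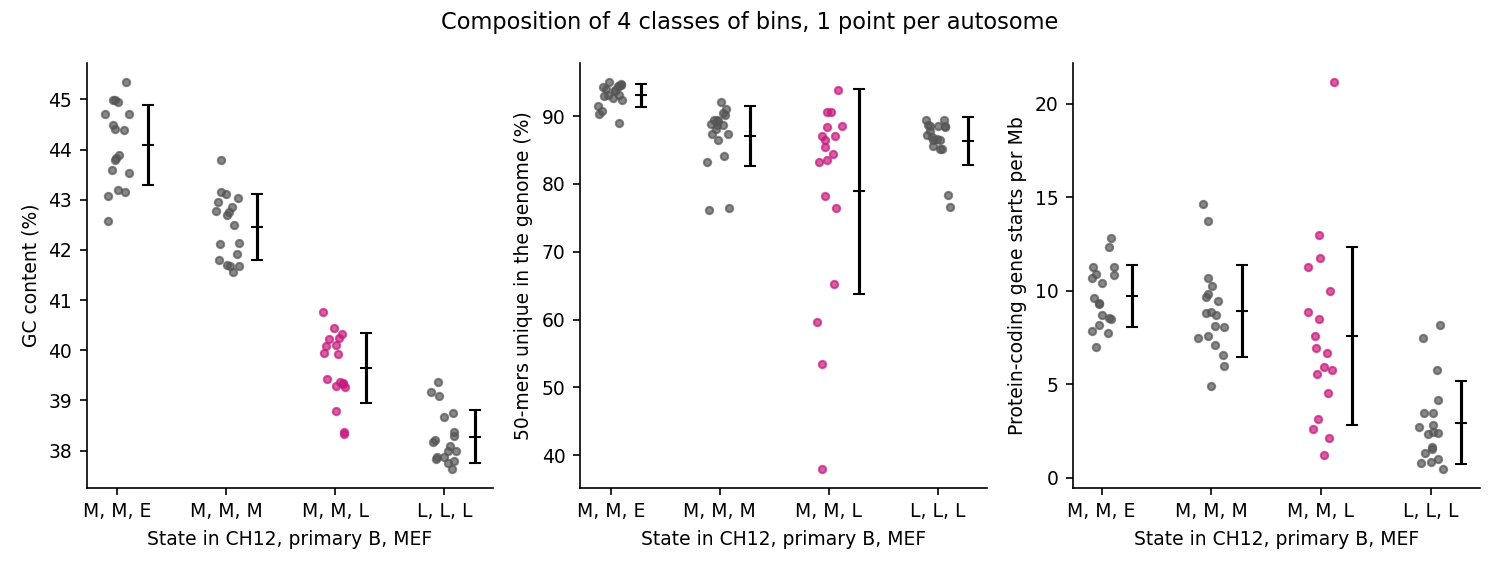
GC content, share of 50-mers unique in the genome, and protein-coding gene starts per Mb in 4 classes of bins named by their state in CH12, primary B and MEF maps, 1 point for each of 18 autosomes, with mean ± SD beside the points. Members (M, M, L) lie below the 2 other B cell M classes in GC on each autosome, and their lowest point for unique 50-mers is chromosome 2 at 38.0%.

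Several differences among the members depended on whether the chromosome 2 cluster was counted. Runs of at least 300 kb had 66.0% unique 50-mers and 9.16 protein-coding starts per Mb, against 78.8% and 7.35 in shorter runs. All 5 runs of the cluster were that long, and without them the longer runs had 79.4% and 7.10, so both differences turned round. Leaving out the cluster was chosen after seeing the data. Runs at the edge of a MEF late domain had 77.6% unique 50-mers and runs inside it 68.4%, which became 79.9% and 78.0% without the cluster. The 372 bins with L on both sides in both B cell maps had 6.45 starts per Mb, and the 438 bins between E and L in both had 9.13. Without the cluster the latter had 6.84, on 329 bins. Unique 50-mers made up 70.6% in the bins with L on both sides and 67.7% in those between E and L. Without the cluster the first value stayed at 70.6% and the second became 84.9%, so that difference turned round and widened. GC was 39.7% and 39.9% in runs of at least 300 kb and in shorter runs, a smaller difference than the SD between autosomes.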

How the data were processed

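Per the labels and the study's methods, the authors trimmed reads of early and late S phase fractions (Trim Galore 0.6.5), aligned them to mm9 (BWA 0.7.17), kept unique alignments (SAMtools 1.9) and merged replicates. They removed duplicates, smoothed log2 early over late ratios of 20 kb windows over 300 kb and called 3 states by a hidden Markov model. Whether the public MEF reads took every step is not stated. The deposited maps give domains with a state number and no RT value. Numbers were named from the data. In each map E and L never touched, and gene starts per Mb and GC fell from E through M to L. All 20 chromosomes ended at NCBIM37 lengths in each map.

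Bins of unknown bases only were dropped. Genes came from GENCODE M1 and were placed by their start. Every 200 bases a 50-mer was searched for on both strands of the whole genome, exact matches only. Functions were tested on simulated data. Members, gene lists and families were chosen with earlier results of these data known. The genes named were those overlapped by the 10 longest runs, list members and the families with most starts, besides those said to be picked after their values were seen. Python 3.11.15, numpy 2.4.6, pandas 2.3.3 and matplotlib 3.10.9 were used.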

Additional observations from a re-analysis of the deposited data

How the results depend on the processing

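The maps fix states at 20 kb under a 300 kb smoothing span, so runs shorter than that span and bins near domain edges are the least certain, and no replicate spread limits any value. Counts, medians and densities were taken as moved beyond 1.5 times, the share beyond its Wilson interval of 6.29 to 6.98%, and GC beyond 1 SD between autosomes. By these unequal limits 7 of 27 alternatives moved a value. Leaving out bins within 100 kb of a domain edge in any map cut the members from 1359 to 387 and the share of bins M in both B cell maps that were L in MEFs from 6.63% to 4.95%. With chromosome X the share was 7.74%. It was 5.68% in bins with at least 50% unique 50-mers and 5.41% without chromosomes 2 and 6, both alternatives chosen after seeing the data. Runs of at least 300 kb numbered 28 of 153. Counting all annotated gene types gave 16.1 starts per Mb in place of 8.13. GC content of members stayed between 39.7 and 39.8% under its 4 alternatives. No paired analysis was possible because each map pools its replicates into 1 set of states.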

Other observations

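The same states were counted on chromosome X, which the choice of members left out. Of 8138 bins with a known base and a state in all 3 maps, 330 were M in both B cell maps and L in MEFs (4.06%), beside 1.13% of autosomal bins. They made up 24.9% of the 1324 X bins that were M in both B cell maps (Wilson 95% interval 22.7 to 27.3%), and the other 994 were M in MEFs. None was E in MEFs, but the MEF map had no E bin anywhere on chromosome X. It held 40478 E bins both on autosomes alone and with chromosome X. Its L bins numbered 34853 on autosomes and 39958 with chromosome X. L in MEFs was thus a larger share of X bins than the 29.1% of autosomal bins. The 24.9% lay below that X share, as the 6.63% on autosomes lay below 29.1%. The part of this base rate in the higher X values was not tested. The bins formed 36 runs with a median of 120 kb, the longest being chrX:106020001-106660000 of 640 kb. In the X bins 71.2% of 50-mers were unique, GC content was 39.6%, and protein-coding starts numbered 36, or 5.45 per Mb. These starts included Ids, a lysosomal sulphatase, and Mtm1, a phosphatase mutated in myopathy, both picked after their values were seen. The methods state that mice of both sexes were used without distinction, and the sex behind each map is not given in the sources used here.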
